A study of Mus musculus with 9 samples.

Results

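The regions described here are stretches of 100 bp, called tiles, that are dense in CpG dinucleotides and nevertheless carry high methylation in cultured fibroblasts. They were chosen as autosomal tiles with a CpG density of 8 or more and a mean level of 60% or more over the fibroblast samples, and 10 or more calls in each sample. CpG density counts the CpGs up to 50 bp away on each side of a CpG, averaged over the tile. The rule found 4867 tiles, among 60219 dense autosomal tiles that met the call minimum and 279699 tiles of any density that did so. The fibroblast level chose the tiles, so it is given as a description. Of the dense tiles, 54150 lay under 20% in fibroblasts, and the numbers fell to 194 between 50 and 60% and 193 between 60 and 70% before rising to 2830 between 80 and 90%. The 33 tiles just inside the threshold, from 60.2 to 62% in fibroblasts, had a median of 47.9% in NT embryos, and the 37 dense tiles just outside it, from 58 to 59.6%, had a median of 41.5%.

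The study compared mouse embryos made by somatic cell nuclear transfer with the donor cells, by reduced representation bisulfite sequencing. In that assay MspI cuts genomic DNA at CCGG, short fragments are converted with bisulfite, and each read reports a CpG as methylated or not. NT embryos (label NTZy14) were C57/B6 oocytes from which the nucleus had been removed, given a fibroblast nucleus, activated with strontium chloride in cytochalasin B and cultured, with 2 samples of strain label X1 and 2 of BDF1-CAST. They were set against fibroblasts (label TT), grown out of tail tips of adult males and passaged in serum, with 2 samples of X1 and 2 of BDF1-CAST. What X1 and the digits of NTZy14 denote is not given in the sources used here, nor is the number of embryos behind a sample. Samples are called by their label numbers, of which 1 and 2 are BDF1-CAST and 3 and 4 are X1.

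Most CpG-dense DNA in mammals lies in CpG islands at gene promoters, and these are unmethylated in nearly all tissues. The CpG-dense places that somatic cells do methylate include copies of repeated elements and the promoters of a group of germline genes, which methylation keeps silent outside the germ line. After fertilisation the paternal genome loses much of its methylation within the zygote and the maternal genome loses it over the following divisions, while imprinted regions and some repeats keep theirs. Nuclear transfer places a somatic genome, with its own pattern, in the same cytoplasm.

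Both kinds of place occur among the tiles, and a few sequences show what they look like. The following are stretches upstream of the RefSeq start sites of genes of the germ line, printed 5′ to 3′ on the strand of the gene, with coordinates on GRCm38.p6. The CpGs in capitals are those that lie in a methylated dense tile and had at least 10 calls in each stage. Other CpGs are in lower case.
Zglp1, minus strand, chr9:21067171-21067208: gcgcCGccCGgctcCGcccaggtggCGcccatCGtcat
Ddx4, minus strand, chr13:112652395-112652441: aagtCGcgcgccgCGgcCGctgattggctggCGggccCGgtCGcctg
Slc25a31, plus strand, chr3:40708821-40708864: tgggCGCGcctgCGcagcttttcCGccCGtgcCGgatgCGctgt
Sohlh2, plus strand, chr3:55181994-55182024: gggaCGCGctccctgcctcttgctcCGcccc

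The second kind is known from the files by CpG spacing, the distances between consecutive CpGs. The spacing 8-16-2-8 bp, read in either direction, occurred at 1266 places in the files. It also stands upstream of the RefSeq start sites of Gm5636 and Gm30645, and other promoters were not counted for it. In the following stretches the 5 CpGs with that spacing are in capitals. Both stretches share their first 49 bases. Whether either locus is a copy of what the tiles hold cannot be read from spacing alone.
Gm5636, minus strand, chrX:47436542-47436649: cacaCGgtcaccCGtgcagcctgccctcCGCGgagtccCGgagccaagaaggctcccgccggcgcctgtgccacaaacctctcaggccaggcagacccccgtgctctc
Gm30645, minus strand, chr7:10471317-10471377: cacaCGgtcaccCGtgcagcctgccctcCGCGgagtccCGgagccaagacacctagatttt

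The NT embryo libraries held 25239364 to 30396273 calls and the fibroblast libraries 35442175 to 41466097. In a typical tile of the set this gave a median of 39 to 51 calls per NT embryo sample and 75 to 147 per fibroblast sample, so a single tile was measured less precisely in NT embryos. X1 libraries covered 1376884 to 1596888 CpGs and BDF1-CAST libraries 1746590 to 1886972, and the strain labels and this coverage cannot be told apart. A level is a share of calls over all DNA in a sample, so a lower level in every cell and loss in a part of the cells cannot be told apart. The labels do not say whether samples of a group are separate animals or cultures, so the p-values speak only of the spread among these samples, which may be technical.

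The dense methylated tiles had lower methylation in NT embryos than in fibroblasts, and the gap was wider in BDF1-CAST. Their mean level was 82.9 and 79.4% in the X1 embryos and 70.05 and 71.5% in the BDF1-CAST embryos. It was 87.6 and 87.3% in the X1 fibroblasts and 86.0 and 84.5% in the BDF1-CAST fibroblasts. All 4 NT embryo samples lay below all 4 fibroblast samples, and the group means were 76.0% ± 6.18 in NT embryos and 86.4% ± 1.44 in fibroblasts (SD, n = 4 each). The difference came to -6.32 points in X1 and -14.4 points in BDF1-CAST. Dense tiles that lay under 20% in fibroblasts averaged 1.56% in NT embryos and 1.60% in fibroblasts.

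**Figure D1:**
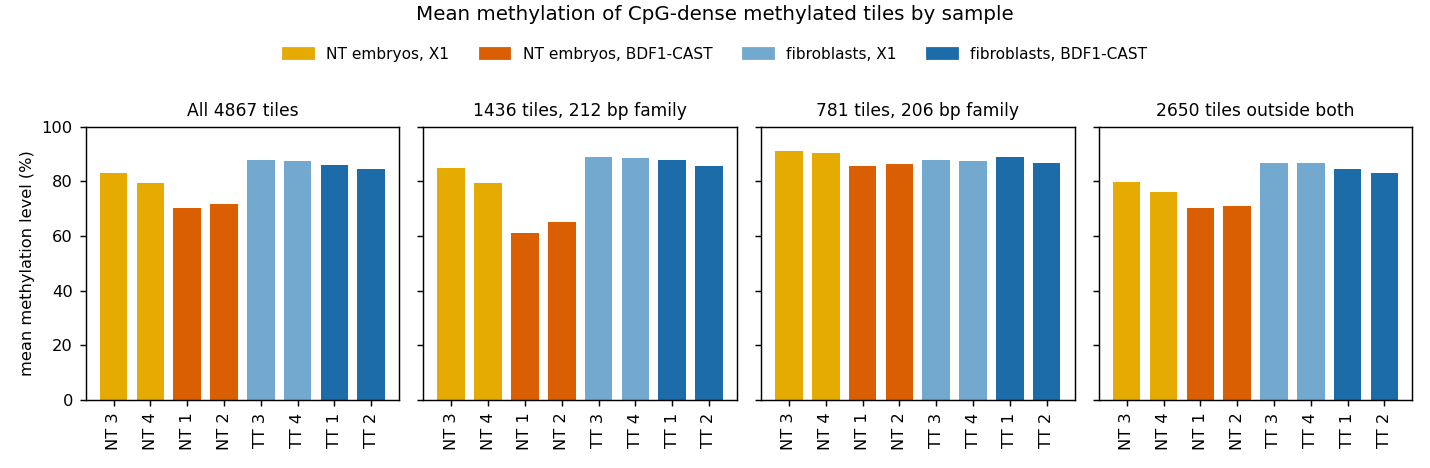
Mean methylation level in percent (vertical axis) of each of the 8 samples (horizontal axis, NT embryos left of fibroblasts) over all tiles, the tiles of 2 repeat families and the tiles outside both. Bars are single samples. In the 212 bp family the BDF1-CAST embryos stand at 61.2 and 65.0%, below every other sample, and in the 206 bp family all samples stand between 85.5 and 90.9%.

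Because the fibroblast level chose the tiles, the difference was also measured in samples the choice did not use: tiles were chosen in the fibroblasts of one strain and measured in the samples of the other. The 4819 tiles chosen in BDF1-CAST fibroblasts had levels of 83.0 and 79.4% in the X1 embryos, against 87.5 and 87.3% in the X1 fibroblasts. The 4966 tiles chosen in X1 fibroblasts had levels of 69.0 and 70.6% in the BDF1-CAST embryos, against 84.9 and 83.4% in the BDF1-CAST fibroblasts. The held-out difference was -10.3 points over both strains, -6.23 in X1 and -14.3 in BDF1-CAST, close to the values over the tiles as chosen. Of the 4819 and 4966 tiles, 4792 and 4840 were also in the set as chosen, so this closeness is no separate check. The choice still rested on fibroblast levels, so tiles high in NT embryos alone could not enter, which favours a lower NT embryo level. With a minimum of 20 calls the held-out difference was -8.81 points, and with tiles weighted by their calls -8.01 points.

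Behind the lower mean stood a downward shift in most tiles and a small number of tiles with little methylation left in NT embryos. By their NT embryo mean, 2272 of the tiles (46.7%) stood at 80% or more, 1974 (40.6%) between 60 and 80%, 591 (12.1%) between 20 and 60% and 30 (0.616%) under 20%. The NT embryo level exceeded the fibroblast level in 1060 tiles (21.8%). Methylated tiles of density under 8 had a similar pattern, with 28.9, 51.9, 18.4 and 0.861% in the same classes. Among them the NT embryo level exceeded the fibroblast level in 16.9%. In the held-out measurement, tiles at 80% or more made up 73.7 and 64.6% in the X1 embryos and 40.1 and 40.5% in the BDF1-CAST embryos, against 87.7 and 86.9% in the X1 fibroblasts and 82.4 and 75.9% in the BDF1-CAST fibroblasts. Tiles under 20% made up 1.66 and 2.72% in the X1 embryos and 3.93 and 2.94% in the BDF1-CAST embryos. In the fibroblasts the share under 20% was 0.0415 and 0.0208% in X1 and 0.181 and 0.222% in BDF1-CAST. For both classes the NT embryo values and the fibroblast values did not overlap, an order that the choice by fibroblast level favours.

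In 778 of the tiles (16%) all 4 NT embryo samples lay below all 4 fibroblast samples, and in 34 (0.699%) all 4 lay above, against 11.9% and 0.874% of all tested tiles. Among methylated tiles of density under 8 these shares were 17.6% and 0.953%. The model across all tiles, with a threshold of 0.05 for the adjusted p and 20 points for the difference, called 355 of the tiles (7.29%) lower in NT embryos and none higher, against 3.74% of all tested tiles lower and 0.132% higher. The rule for the tiles used the fibroblast level of that contrast, so the counts are descriptions. Methylated tiles of density under 8, chosen by the same fibroblast level, were called lower in 6.36%. No tile of the set was called without fibroblast sample 1 or without fibroblast sample 2, so the count depends on single samples. Without fibroblast samples 3 and 4 it was 55 and 48, and without NT embryo samples 1 and 2 it was 119 and 111.

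A difference in the fall between dense and less dense methylated tiles was not detected with these samples. Methylated tiles of density under 8, held out in the same way and weighted to the same fibroblast levels, averaged 72.5% ± 4.74 in NT embryos and 84.5% ± 2.26 in fibroblasts (SD, n = 4 each), a difference of -12.0 points. The dense tiles exceeded them by 5.11 and 4.28 points in the X1 embryos and by 0.491 and 2.09 points in the BDF1-CAST embryos. The excess was 0.861 and 1.24 points in the X1 fibroblasts and 1.28 and 1.58 points in the BDF1-CAST fibroblasts. The excess in NT embryos minus that in fibroblasts was 1.75 points, and the two-sided exact permutation test of sample labels did not pass (p = 0.2; 4 against 4 samples cannot go below 0.0286). Within strains it was 3.65 points in X1 and -0.142 points in BDF1-CAST. At a density of 10 or more it had the other sign, -0.614 points, and it reached p = 0.0286 in the exact permutation test under 3 alternatives. These were the fit without NT embryo sample 1, at 2.59 points, tiles weighted by their calls, at 2.57 points, and tiles without a recurring spacing, at 2.23 points. Against single density classes the difference ran from -0.536 points for densities 6 to 8 to 3.32 points for densities 2 to 4, with adjusted p from 0.343 to 0.4 over 4 exact permutation tests.

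**Figure D2:**
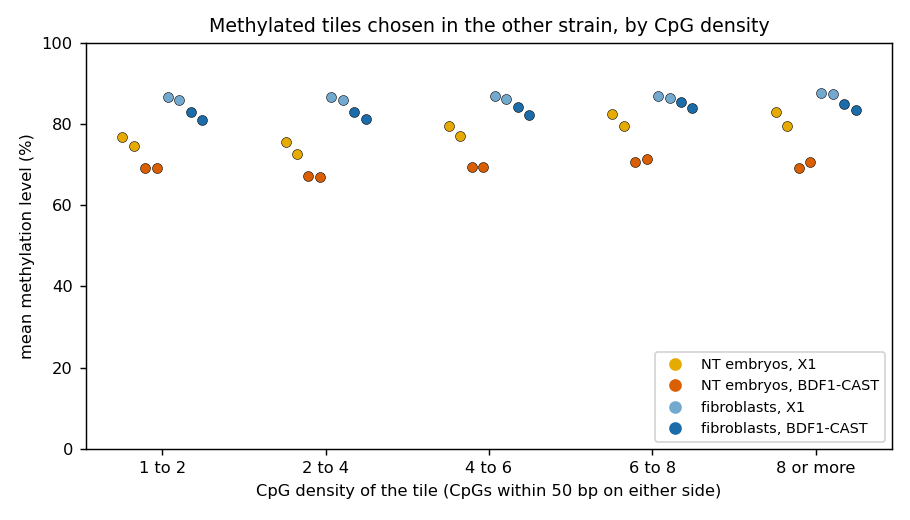
Mean methylation level in percent (vertical axis) of methylated tiles in 5 classes of CpG density (horizontal axis), each tile chosen in the fibroblasts of the other strain and the lower classes weighted to the fibroblast levels of the densest. Points are single samples, with NT embryos left of fibroblasts in each class, and the BDF1-CAST embryos lie lowest in every class, between 66.8 and 71.4%.

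A large part of the tiles belong to 2 tandem families that recur across the genome, and the families differed in their NT embryo levels. Both were found by their CpG spacing after the data had been seen, so no test is attached to them. The first has a unit of 212 bp with 10 CpGs, spaced 45, 12, 21, 4, 13, 7, 3, 37, 45 and 25 bp apart. One of its 4-gap windows occurred at 4073 places. Of the 2348 places with a further copy within 1000 bp, the next copy began 212 bp away in 2019 (86.0%). The family held 1436 of the tiles (29.5%).

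Tiles of the 212 bp family had levels of 84.7 and 79.2% in the X1 embryos and 61.2 and 65.0% in the BDF1-CAST embryos, against 88.9 and 88.5% in the X1 fibroblasts and 87.6 and 85.6% in the BDF1-CAST fibroblasts. The difference between NT embryos and fibroblasts was -6.75 points in X1 and -23.5 points in BDF1-CAST. In the mean over both strains the lower level was shared by nearly the whole family. The NT embryo mean lay below the fibroblast mean in all but 12 tiles, and in 82.4% of the tiles it lay between 60 and 80%. That mean joins unlike strains, with tile medians of 86.0 and 81.0% in the X1 embryos and 62.7 and 65.8% in the BDF1-CAST embryos. No tile of the family was under 20% in the NT embryo mean. The 4552 methylated tiles of lower density that hold the same spacing had differences of -5.82 points in X1 and -21.8 points in BDF1-CAST. The handling of reads that match several copies is not given in the sources used here, and its part in these levels was not tested.

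**Figure D3:**
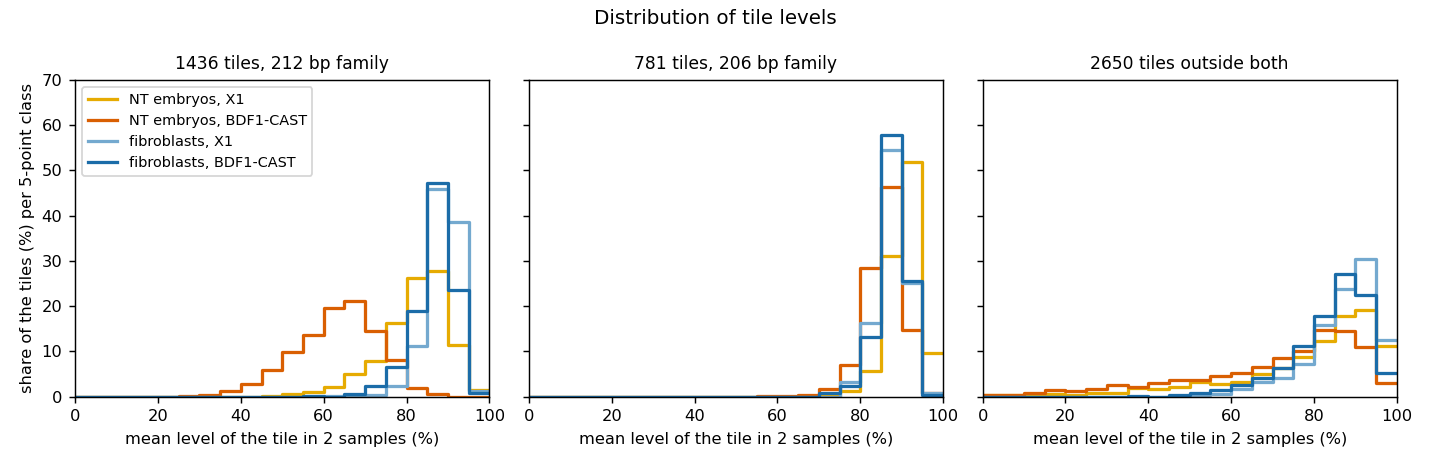
Distribution of tile levels in percent (horizontal axis, mean of 2 samples of a stage and strain) as the share of tiles in each 5-point class (vertical axis), for the 2 families and the remaining tiles. In the 212 bp family the curve of the BDF1-CAST embryos peaks between 65 and 70%, with 21.1% of the tiles, while the tiles outside both families trail down to 0 in NT embryos of both strains.

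Along the 212 bp unit the loss was not even. Pooled over its copies, the first CpG stood at 57.1% ± 16.5 in NT embryos and 86.6% ± 3.99 in fibroblasts (SD, n = 4 each), with at least 808 calls per sample. In the BDF1-CAST embryos it stood at 45.9%. The CpG 78 bp into the unit stood at 71.7% ± 11 in NT embryos and 82.4% ± 1.59 in fibroblasts, with at least 9317 calls per sample. The difference was thus -29.4 points at the first CpG, -19.9 at the second and -10.7 to -14.5 at the next 6. The CpG at 187 bp, with 69 copies covered, was the lowest of the 9 covered CpGs in both stages, at 47.6% ± 13.2 in NT embryos and 65.4% ± 2.07 in fibroblasts. Different positions are covered in different copies and share the libraries, so the profile is a description.

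**Figure D4:**
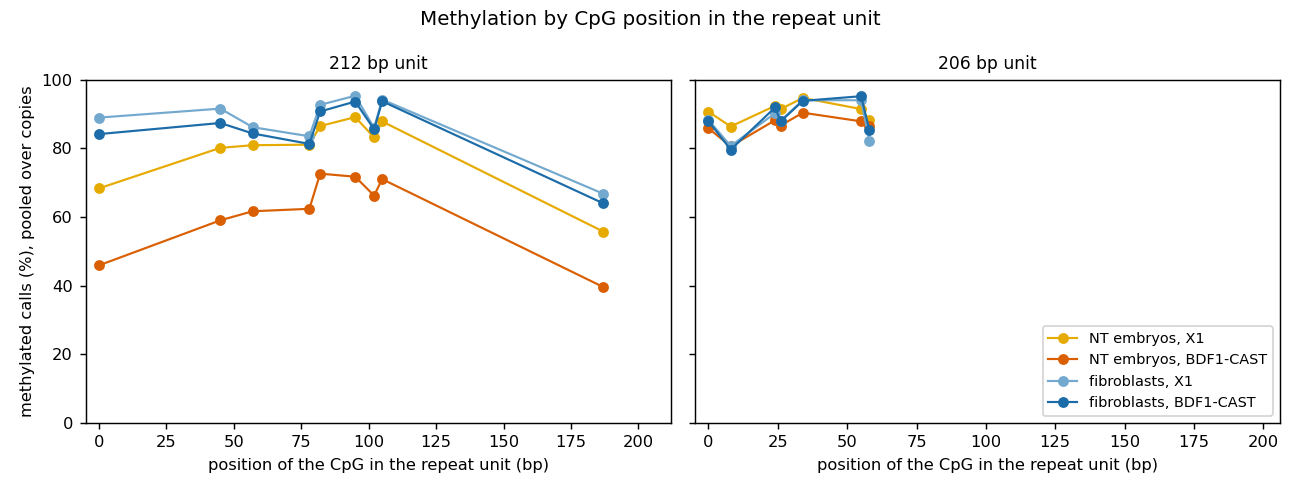
Share of methylated calls in percent (vertical axis) by position of the CpG in the repeat unit in bp (horizontal axis), pooled over copies and averaged over the 2 samples of each stage and strain, for positions of 100 or more calls per sample. Lines join neighbouring CpGs. In the 212 bp unit the BDF1-CAST embryos run below the other groups at every CpG shown. In the 206 bp unit, of which the first 7 of 14 CpGs are shown, every group lies between 79.6 and 95.2%.

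Tiles of the second family had NT embryo levels close to their fibroblast levels. Its unit is 206 bp long with 14 CpGs and holds the spacing 8-16-2-8 printed above, and of 742 places with a further copy within 1000 bp the next began 206 bp away in 413 and 205 bp away in 162. It held 781 of the tiles (16%). Their levels were 90.9 and 90.3% in the X1 embryos and 85.5 and 86.1% in the BDF1-CAST embryos, against 87.9 and 87.5% in the X1 fibroblasts and 88.8 and 86.8% in the BDF1-CAST fibroblasts. The X1 embryos lay above the X1 fibroblasts, by 2.84 points in the mean, and the BDF1-CAST embryos lay below the BDF1-CAST fibroblasts, with a difference of -1.98 points. Of the 781 tiles, 766 stood at 80% or more in the NT embryo mean and none under 60%. Over the 7 CpGs of the unit that had 1262 or more calls per sample, the difference between NT embryos and fibroblasts ran from -4.94 to 3.61 points. The other 7 were thinly covered, with 2 to 28 calls in the sample of fewest, and 5 of them were lower in NT embryos. The CpG at 141 bp stood at 60.6% ± 8.81 in NT embryos and 77.0% ± 3.32 in fibroblasts, and that at 144 bp at 67.7% ± 7.39 in NT embryos and 85.3% ± 2.93 in fibroblasts (SD, n = 4 each), with 22 and 23 calls in the sample of fewest. The CpGs at 95, 118 and 172 bp had differences of -7.18, -29.9 and -14.8 points, and those at 159 and 168 bp of 1.70 and 6.78 points. The first 7 CpGs were covered in 323 to 705 copies each and the other 7 in 22 to 88.

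Dense methylated tiles were joined into runs where they lay within 1000 bp. The 9 longest runs held 7 to 10 tiles, and in 8 of them every tile was of the 206 bp family, while 1 of the 6 runs of 7 tiles held a tile of the 212 bp family. The longest, 10 tiles at chr6:56196701-56198600 on mm9, averaged 90.8 and 90.7% in the X1 embryos and 87.1 and 88.7% in the BDF1-CAST embryos, against 89.4 and 87.7% in the X1 fibroblasts and 89.8 and 87.6% in the BDF1-CAST fibroblasts. Next came 2 runs of 8 tiles and, of the runs of 7, the 2 with the most calls. These 4, at chr16:27423601-27425100, chr8:53921601-53923100, chr13:85984001-85985300 and chr14:14472801-14474100, averaged 87.4 to 89.3% in NT embryos and 87.6 to 89.3% in fibroblasts. Single tiles were the rule, with 2609 of 3518 joined regions (74.2%) holding 1 tile.

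Runs of tiles and tiles beside unmethylated DNA were compared with the remaining tiles in the held-out samples, among 5 subclasses. Tiles in runs of 3 or more averaged 78.8% ± 7.35 in NT embryos and 86.7% ± 1.51 in fibroblasts, and the others 74.7% ± 6.62 and 85.5% ± 2.13 in the same groups (SD, n = 4 each). Their difference between stages was smaller by 2.94 points (two-sided exact permutation p = 0.0286, adjusted p = 0.0714), in the same direction in both strains, at 4.15 points in X1 and 1.73 in BDF1-CAST. Tiles with a tile under 20% within 1000 bp, 57 in the choice by each strain, averaged 46.8% ± 7.96 in NT embryos and 72.0% ± 7.35 in fibroblasts. The others averaged 75.8% ± 6.76 and 85.9% ± 1.94 in the same groups. The difference between stages was larger by 15.1 points beside unmethylated tiles (exact permutation p = 0.0286, adjusted p = 0.0714). The subclasses were not matched for their fibroblast levels. Neither of these 2 subclasses passed the adjustment. A density of 10 or more, a spacing found at 10 or more places and a fibroblast level of 80% or more gave adjusted p of 0.286, 0.238 and 0.571 in the same exact permutation tests.

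Outside both families, 2650 tiles (54.4%) had levels of 79.6 and 76.2% in the X1 embryos and 70.3 and 70.8% in the BDF1-CAST embryos. Their fibroblast levels were 86.8 and 86.6% in X1 and 84.3 and 83.1% in BDF1-CAST. All 30 tiles that stood under 20% in the NT embryo mean were among them, as were 275 of the 355 tiles called lower. These 275 made up 10.4% of the tiles outside both families, the other 80 made up 5.57% of the 212 bp family, and none was of the 206 bp family, against 3.74% of all tested tiles. Tiles that were high in one NT embryo sample tended here to be high in the others. Across the 2650 tiles the correlation was 0.547 between the X1 embryos and 0.653 between the BDF1-CAST embryos, against 0.144 and 0.0953 across the 781 tiles of the 206 bp family. Between the strains it was 0.66 and 0.234 in NT embryos. The NT embryo means ran from 4.37 to 100% outside both families and only from 67.5 to 97.2% in the 206 bp family. A narrower range lowers a correlation, and its part was not tested. The tiles share libraries and depth, so these are descriptions.

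Recurring spacings outside both families also had unlike levels. The spacing 2-6-2-4, found at 527 places, held 144 tiles, which averaged 87.4% ± 2.04 in NT embryos and 87.4% ± 0.390 in fibroblasts (SD, n = 4 each). The 62 tiles with the spacing 8-13-9-9 averaged 93.1% ± 2.13 in NT embryos and 94.3% ± 0.390 in fibroblasts. By contrast, the 89 tiles with the spacing 2-20-7-5 averaged 77.3% ± 4.53 in NT embryos and 89.8% ± 2.34 in fibroblasts, and the 54 tiles with the spacing 10-5-20-14 averaged 69.9% ± 4.27 and 83.7% ± 1.35 in the same groups. The 252 tiles whose spacing recurred at 2 to 9 places had a difference of -19.0 points, against -10.6 points for the 2180 whose spacing recurred at 10 or more. It was -17.6 points for the 16 tiles whose spacing was found at 1 place. For the 202 tiles without 5 CpGs close enough to give a spacing it was -4.25 points.

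Promoters made up few of the tiles. RefSeq promoters, windows of 250 bases before to 50 after a start site, were matched to the files by runs of 6 CpGs with a spacing found once, which placed 9763 of 32851 promoters. Of 6820 genes with a dense tested tile in the matched window, 21 (0.308%) had a dense methylated tile, and 99.3% of the dense promoter tiles lay under 20% in fibroblasts. A list of 26 genes of the germ line and early embryo, chosen with earlier results known, had 7 genes with a dense tested tile in a matched promoter, and all 7 had a methylated one: Ddx4, Mael, Tdrd1, Sohlh2, Hormad1, Tuba3b and Slc25a31. Ddx4 encodes a germ cell RNA helicase, Mael and Tdrd1 act in the piRNA pathway that silences transposons, Sohlh2 is a transcription factor of early germ cells, Hormad1 belongs to the meiotic chromosome axis, and Tuba3b and Slc25a31 encode a tubulin and an ADP/ATP carrier of the testis.

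The 8 tiles of these 7 genes averaged 88.0 and 75.7% in the X1 embryos and 55.4 and 46.2% in the BDF1-CAST embryos, against 85.5 and 85.2% in the X1 fibroblasts and 83.3 and 84.1% in the BDF1-CAST fibroblasts. Within the BDF1-CAST embryos the level often differed widely between the 2 samples. The Hormad1 tile, chr3:95363501-95363600 on mm9, stood at 85.7% in BDF1-CAST embryo 1 and 10.3% in BDF1-CAST embryo 2, with 86.0 and 83.3% in the X1 embryos and 87.4 to 92.8% in fibroblasts. The Mael tile, chr1:168168801-168168900, stood at 71.3 and 19.1% in the BDF1-CAST embryos, 83.3 and 86.4% in the X1 embryos and 74.1 to 89.7% in fibroblasts. For Ddx4 the order was the other way, with 18.3 and 50% in BDF1-CAST embryos 1 and 2 at chr13:113442601-113442700, the stretch printed above, 99.3 and 83.8% in the X1 embryos and 78.6 to 79.7% in fibroblasts. The second Ddx4 tile, chr13:113442501-113442600, stood at 73.3 and 63.3% in BDF1-CAST embryos 1 and 2 and at 89.6 and 76.1% in the X1 embryos, against 67.2 to 84.3% in fibroblasts, with a difference between stages of -0.817 points.

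At each CpG in capitals in the germline stretches printed above, the level pooled over samples was lower in NT embryos, by unequal amounts within a stretch. This did not hold at every promoter examined in this way. A CpG of the Mael tile stood at 95.1% in NT embryos and 94.4% in fibroblasts. In the promoter tile of Rpl39l a CpG stood at 94.1% in NT embryos and 78.9% in fibroblasts. The other CpGs examined in these tiles were lower in NT embryos. Pooled over samples, the 6 CpGs in capitals of Ddx4 stood between 62.4 and 69.2% in NT embryos and between 72.0 and 89.2% in fibroblasts. The 7 of Slc25a31 stood between 49.1 and 76.3% in NT embryos and between 87.5 and 97.8% in fibroblasts. Its tile, chr3:40512701-40512800, stood at 96.7 and 42.6% in the X1 embryos and 38.4 and 76.5% in the BDF1-CAST embryos, against 88.5 to 96.3% in fibroblasts. The Sohlh2 tile was the single one of the 8 to be called lower, at 81.3 and 80% in the X1 embryos and 59.3 and 50.7% in the BDF1-CAST embryos, against 85.9 to 93.9% in fibroblasts.

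The widest gaps between NT embryos and fibroblasts among the promoter tiles were at Zglp1, a GATA-like zinc finger factor of germ cells, and at the shared promoter of Btbd18, which regulates piRNA genes in the testis, and Ctnnd1, which encodes a catenin. These genes were singled out after their values were seen. The Zglp1 tile at chr9:20871601-20871700, printed above, had no methylated call in either X1 embryo and stood at 14.8 and 20.1% in the BDF1-CAST embryos, against 80.4 and 60% in the X1 fibroblasts and 70.6 and 72.3% in the BDF1-CAST fibroblasts. In the X1 embryos these were 0 of 45 and 0 of 65 calls, which allow a level of up to about 6.67 and 4.62%. Such limits, here and below, are 3 over the number of calls. They are approximate and treat calls as independent, which calls on the same read are not, so the level could be higher. Its 5 CpGs in capitals stood between 13.9 and 31.6% in NT embryos and between 62.4 and 96.1% in fibroblasts. A second Zglp1 tile, chr9:20871401-20871500, stood at 12 and 26.9% in the X1 embryos and 6.12 and 34.4% in the BDF1-CAST embryos, against 88.1 to 91.4% in fibroblasts. At both tiles all 4 NT embryo samples lay below all 4 fibroblast samples.

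Of the Btbd18 and Ctnnd1 tiles, chr2:84499201-84499300 stood at 50 and 33.3% in the X1 embryos and 0 and 13.3% in the BDF1-CAST embryos, against 87.0 to 94.6% in fibroblasts. The 0 rests on 22 calls and allows up to 13.6%. Its neighbour, chr2:84499101-84499200, stood at 0 and 93.3% in the X1 embryos and 28.9 and 31.8% in the BDF1-CAST embryos, against 88.0 to 90.3% in fibroblasts, and its 0 rests on 17 calls and allows up to 17.6%. The single high NT embryo value there, in sample 4, lay above every fibroblast sample. The tile of Il12a, a subunit of interleukin 12, at chr3:68495201-68495300, stood at 0 of 36 and 0 of 32 calls in the X1 embryos, which allow up to 8.33 and 9.38%, and at 16.1 and 54.2% in the BDF1-CAST embryos. In fibroblasts it ranged widely, at 38.1 and 70.4% in X1 and 68.5 and 82.4% in BDF1-CAST, and it was not called.

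**Figure D5:**
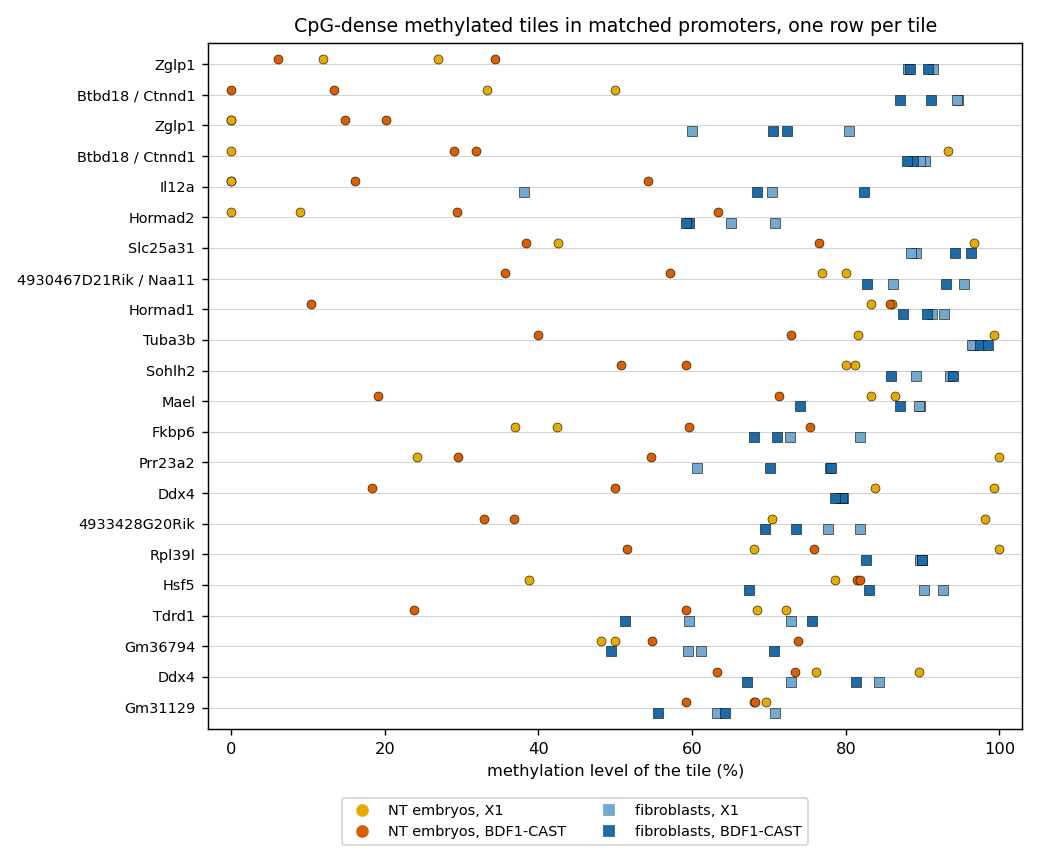
Methylation level in percent (horizontal axis) of the 22 dense methylated tiles in matched promoters, 1 row per tile, ordered by the difference between NT embryos and fibroblasts. Circles are NT embryo samples and squares fibroblast samples. The NT embryo circles spread over more than 50 points in 10 of the rows, and in the top 3 rows they lie apart from the fibroblast squares.

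Over all 22 promoter tiles, with 10 to 587 calls per sample, the mean was 59.3 and 58.1% in the X1 embryos and 47.2 and 46.1% in the BDF1-CAST embryos, against 81.3 and 80.1% in the X1 fibroblasts and 78.1 and 78.9% in the BDF1-CAST fibroblasts. Of the 22, 6 (27.3%) were called lower, against 7.29% of all the dense methylated tiles and 3.74% of all tested tiles. The range between the 4 NT embryo samples exceeded 50 points in 10 of them (45.5%), against 517 (10.6%) of all the dense methylated tiles and 17% of the methylated tiles of lower density. No promoter tile belonged to either tandem family, but the match needed a spacing found once, so tiles of the families could hardly be matched. By their letters, the RefSeq promoters of 9 genes held 4 consecutive gaps of the 212 bp unit. Those of 15 genes held 4 of the 206 bp unit. Letters of 2 motifs were searched on both strands of the 300 base windows. CACGTG, an E-box, stood in 8 of the 21 genes (38.1%), against 12% of the genes with a dense tested tile and 7.15% of all promoters. GGCGGGA, part of an E2F site, also stood in 8 of the 21 (38.1%), against 29.7% and 11.3%. A match is a description of the letters, not a binding site.

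The 10 called tiles with the largest falls stood at 4.74 to 21% in NT embryos and 77.2 to 95.6% in fibroblasts. The largest was at chr2:32775101-32775200, at 0 of 15 calls in each X1 embryo, which allows up to 20%, and at 20 and 11.1% in the BDF1-CAST embryos, against 94.9 and 96.3% in the X1 fibroblasts and 93.7 and 87.9% in the BDF1-CAST fibroblasts. The tile at chr12:55723701-55723800 was low in all NT embryo samples, at 17.4 and 6.67% in X1 and 11.8 and 9.23% in BDF1-CAST, against 86.4 and 94.5% in the X1 fibroblasts and 91.4 and 76.1% in the BDF1-CAST fibroblasts. The tile at chr8:73985701-73985800 was at 0 of 100 and 0 of 60 calls in the X1 embryos, which allows up to 3.0 and 5.0%, and at 23.9 and 13.9% in the BDF1-CAST embryos, against 82.8 to 93.6% in fibroblasts. Of the 10, the tile of Zglp1 at chr9:20871401-20871500 was the one with a gene name from a matched promoter. The others lay at chr2:168752101-168752200, chr18:36020401-36020500, chr11:110206001-110206100, chr2:168057101-168057200, chr13:55114701-55114800 and chr15:98444401-98444500. Each of the 10 lost its call without fibroblast sample 1 and without fibroblast sample 2.

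At the other end, the 5 highest NT embryo means among the 1190 tiles covered by 50 or more calls per sample ran from 95 to 95.4%, with 86.7 to 91.4% in fibroblasts. Of these, 3 were of the 206 bp family. The most deeply covered, at chr6:13522101-13522200 with 242 to 1008 calls per sample, stood at 96.4 and 96.0% in the X1 embryos and 93.4 and 95% in the BDF1-CAST embryos, against 91.3 and 91.0% in the X1 fibroblasts and 90.5 and 91.6% in the BDF1-CAST fibroblasts. All 4 NT embryo samples lay above all 4 fibroblast samples there. The 5 tiles were picked for their NT embryo level, which favours that order, and none of them was called higher.

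Between strains, the X1 embryos kept more methylation than the BDF1-CAST embryos in many tiles, most of all in the 212 bp family. Both X1 embryos lay above both BDF1-CAST embryos in 2346 tiles (48.2%), against 25.6% of all tested tiles and 35.9% of methylated tiles of density under 8. They lay below both in 238 (4.89%), against 11.9% of all tested tiles and 7.34% of those methylated tiles. In the 212 bp family they lay above in 1004 of 1436 tiles (69.9%), in the 206 bp family in 349 of 781 (44.7%) and outside both in 993 of 2650 (37.5%). In fibroblasts both X1 samples lay above both BDF1-CAST samples in 1417 of the tiles (29.1%), against 24.1% of all tested tiles and 30.8% of methylated tiles of lower density. They lay below in 570 (11.7%), against 16.5% of all tested tiles and 10.4% of those methylated tiles. The model called no dense methylated tile between X1 and BDF1-CAST at the adjusted threshold, against 0.0107% of all tested tiles. At an unadjusted p under 0.05 there were 840 such tiles (17.3%), against 15.4% of all tested tiles, and the alternative with limma on arcsine square root levels called none either. No tile was called for an interaction of stage and strain, against 0.0% of all tested tiles, and limma called none. Unadjusted, 593 tiles (12.2%) passed for the interaction, against 8.22% of all tested tiles. Within a tile, CpG levels spread beyond counting error by 7.18 points ± 1.38 in NT embryos and 7.72 points ± 0.251 in fibroblasts (SD, n = 4 each), over 1073 tiles, which did not differ beyond the spread between samples (exact permutation p = 0.543).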

How the data were processed

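Each library came with a deposited list of CpGs with 2 counts, calls seen and methylated calls. The authors placed them on mm9, per the submitters' processing notes, and neither aligner nor caller is given in the sources used here. Density is the authors' deposited score in their table of 100 bp tiles. That table also holds methylation as a fraction, and 7 of its deposited columns served to check the sums per tile. From CpGs of 5 or more calls, 99.1% or more of the dense methylated tiles came out within 0.001 of the deposited fraction. Its other 19 sample columns were not used. The deposited description marks library 1a as a resequencing of fibroblast library 1, so both were summed, leaving 8 samples.

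Calls were summed per tile, with a minimum of 10 in each sample. The files count positions from 0, so tiles are printed from their start plus 1. A quasi-binomial model per tile took stage and strain as terms, with the dispersion moderated by limma 3.58.1 in R 4.3.3 and Benjamini-Hochberg adjustment over all tiles. The model was tested on simulated data. Sample values were compared by exact permutation over 70 assignments, and subclass p-values were adjusted over 5 subclasses. Recurring spacings are 4 gaps of at most 60 bp between 5 CpGs found at 10 or more places. Promoter matches needed a second gene more than 1000 bp away whose offset between builds was within 100 bp. No mm9 annotation was used. Tiles named singly are the 10 largest called falls, the 5 highest NT embryo means at 50 or more calls, the 5 longest runs (ties by total calls) and the promoter genes. Other steps used Python 3.11.15, numpy 2.4.6, pandas 2.3.3 and scipy 1.17.1. The tiles, lists and tests were chosen with earlier results of these data known. Calls carry no molecular identifiers, so counts cover counting error only. Alternatives in call minimum, thresholds, weighting, libraries, model, pairing and left-out samples are given in the closing section.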

Additional observations from a re-analysis of the deposited data

Results flagged for a closer look

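In 3 places 1 sample stood far from the other 3 of its stage. With 64 groups tested, chance alone gives about 3.2 such cases. The tile at chr2:168752101 stood at 52.6% in X1 embryo 3, against 0 in the other NT embryo samples, where 10 to 36 calls allow up to 8.33 to 30%. The tile at chr2:168057101 stood at 17.4% in BDF1-CAST embryo 1, against 0 to 1.54% in the others, where the 0 values rest on 51 and 54 calls and allow up to 5.88 and 5.56%. The region at chr8:53921601 stood at 89.4% in fibroblast sample 1, against 86.9 to 87.2% in the others.

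In 4 sets of tiles that were flagged, the X1 embryos lay above the X1 fibroblasts and the BDF1-CAST embryos below theirs. The difference in X1 exceeded that in BDF1-CAST by 4.82 points for the mean of the 206 bp family, 4.89 points for the spacing 8-2-16-8 within it, 2.88 points for 2-6-2-4 and 3.34 points for 8-13-9-9. The order was not limited to these sets. Methylated tiles of the 206 bp family with a density under 8 had differences of 3.02 points in X1 and -2.70 points in BDF1-CAST. These differences between strains were not tested.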

How the results depend on the processing

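The held-out difference kept its sign under every alternative run, from -12.8 to -8.13 points without 1 sample. It was -8.81 at 20 calls, -12.7 at a density of 10 or more and -8.01 when weighted by calls. It was -10.3 when labels were permuted within strain, where no p under 0.0556 is possible, and with same-numbered samples paired as a replicate block, where none under 0.125 is. The excess of dense over less dense tiles was -0.614 at a density of 10 or more. It passed the exact permutation test, at p = 0.0286, when weighted by calls (2.57) and without recurring spacings (2.23), an alternative chosen after seeing the data. Without 1 sample it ran from 1.05 to 2.59. Leaving out 1 sample gave ranges of -34.8 to -23.6 points for the share at 80% or more, 11 to 16.4 for 60 to 80%, 9.48 to 15.4 for 20 to 60% and 2.32 to 3.08 under 20%. The subclass beside unmethylated tiles ran from -15.8 to -12.3. The spread within tiles had the other sign at 20 calls, 1.19 points.

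The count of tiles called lower was 195 with limma, 197 at 20 calls, 227 with fibroblast library 1 alone, 0 with the sample number as a replicate block, and 0 to 452 without 1 sample. Same-numbered samples correlated between stages at 0.0427 to 0.196 over all tiles, with 1 of 4 under 0.1, and at 0.0356 to 0.135 over the dense methylated tiles. The numbers were not taken to pair samples, and these values do not settle whether they do. Between strains, 3 tiles were called with libraries 1 and 1a as separate samples and 1 at a minimum of 10 points. The causes were not tested. Depth limits single tiles in NT embryos most, where 10 calls suffice to enter.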
